A study of Homo sapiens with 5 samples.

Results

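A set of 10 heat shock genes was followed through KGN cells given activators of the signalling routes used by gonadotropins. The 10 genes, HSPA6, HSPA1A, HSPA1B, HSPA8, DNAJB1, HSPH1, HSP90AA1, BAG3, HSPB1 and HSPD1, were taken by their gene names from the 35453 gene names of the deposited tables, and 92 of 179973 transcript rows belong to them. KGN is an established line from a human ovarian granulosa cell tumour, and the labels give its cell type as granulosa cells. Every culture, the control included, received charcoal-stripped medium with 100 nmol/L 4-androstene-3,17-dione for 24 h. The control is called untreated in its title, whereas the written protocol added ethanol, the solvent. The other groups received FSH (follicle-stimulating hormone) at 100 ng/mL, FSK (forskolin, titled PKA activator), SC79 (titled PKB activator, another name of AKT) at 4 µg/mL, or PMA (a phorbol ester, titled PKC activator). FSK was used at 10 and PMA at 0.1, for which the treatment labels give mmol/L, while the written protocol has an unreadable sign before mol. Each group is 1 library made from 3 cultures grown in 3 different weeks, with 90 ng of RNA from each pooled into 270 ng. Pooling left no spread between cultures in the files, so no difference below has a replicate check, and 1 tumour line stands for granulosa cells.

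Heat shock proteins are chaperones that hold, refold or hand on unfolded proteins. HSF1, the main heat shock factor, is held inactive by chaperones and is freed when unfolded proteins occupy them; it then binds heat shock elements, inverted repeats of the unit nGAAn, in the promoters of these genes. HSP70 proteins take J-domain proteins such as DNAJB1 as partners that stimulate ATP hydrolysis, and HSPH1 and BAG3 as nucleotide exchange factors, while small proteins such as HSPB1 hold unfolded proteins without ATP. HSP90 matures kinases and steroid receptors. HSPD1 encodes HSP60, the chaperonin of the mitochondrial matrix, so a cytosolic label holds for the other 9 genes and not for HSPD1.

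The promoters of 4 genes on which the results turn are shown so that matches to the heat shock element can be read in them. RefSeq windows on GRCh38.p14, from 250 bases before to 50 after each start, were at hand for all 10 genes (14 windows). Elements of both lengths were searched on both strands. A 2-unit element was GAANNTTC or TTCNNGAA, each its own reverse complement. A 3-unit element was GAANNTTC followed by NNGAA, or TTCNNGAA followed by NNTTC, which are reverse complements of each other and contain both 2-unit elements. Capitals mark matches. The sequences run 5′ to 3′ on the plus strand and end before the first base of the RefSeq transcript or of any GENCODE 29 exon of the gene. They lie at chr1:161524290-161524539 for HSPA6, chr6:31815293-31815463 for HSPA1A, chr6:31827488-31827734 for HSPA1B and chr7:76302423-76302543 for HSPB1.
HSPA6: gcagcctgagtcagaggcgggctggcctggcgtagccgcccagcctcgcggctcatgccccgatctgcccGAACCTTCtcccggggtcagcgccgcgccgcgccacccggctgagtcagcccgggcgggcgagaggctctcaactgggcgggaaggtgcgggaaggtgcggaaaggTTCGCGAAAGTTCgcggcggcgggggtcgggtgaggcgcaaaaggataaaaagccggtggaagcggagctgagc
HSPA1A: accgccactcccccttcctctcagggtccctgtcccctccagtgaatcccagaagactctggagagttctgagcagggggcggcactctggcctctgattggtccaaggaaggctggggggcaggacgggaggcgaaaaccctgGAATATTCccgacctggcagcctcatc
HSPA1B: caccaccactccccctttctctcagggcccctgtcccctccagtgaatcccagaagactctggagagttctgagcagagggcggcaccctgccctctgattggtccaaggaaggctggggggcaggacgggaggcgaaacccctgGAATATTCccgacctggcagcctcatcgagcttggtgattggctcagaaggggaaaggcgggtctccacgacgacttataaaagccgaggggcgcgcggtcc
HSPB1: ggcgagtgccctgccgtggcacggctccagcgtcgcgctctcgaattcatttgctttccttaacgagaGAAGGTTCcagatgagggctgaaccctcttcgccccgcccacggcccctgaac

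A 3-unit element was found in 172 of 35116 windows of the same length (0.490%) and in 4 of the 14 member windows. These belong to 4 of the 10 genes, HSPA6, HSPA8, HSP90AA1 and HSPD1. The HSPA6 element lay between positions -74 and -62 from the RefSeq start site. A 2-unit element occurred in 4737 windows (13.5%) and in 9 of the 14 member windows, which belong to 8 of the 10 genes. HSPA1A, HSPA1B and HSPB1 held a 2-unit match only, at -106 to -99, -105 to -98 and -182 to -175. BAG3 and HSPH1 had neither in their windows. The HSPH1 window belongs to a start at 31162388, whereas its 2 main transcripts, ENST00000380405 and ENST00000602786, start at 31161927. The HSPA8 window belongs to a start at 123062136, whereas its main transcript, ENST00000227378, starts at 123061332. The starts of these main transcripts lie outside the windows, so the sequence before them was not fully searched. The 250 bases before the HSPA1A and HSPA1B starts were identical in 235 of 251 aligned columns (93.6%). A match describes the letters and is not a measured binding site.

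Libraries held between 50218703 and 58811603 estimated counts, and the 10 genes took 0.337 to 0.386% of them. Values are given as scaled counts, that is, estimated counts summed over a gene's transcripts and scaled to a common library size. Among 8 granulosa markers, 7 reached 100 scaled counts in some library, while WT1 stayed at or below 1.06. In control, FOXL2, NR5A1, CYP19A1 and GATA4 were at 900.5 or more. AMHR2 (98.1), FSHR (92.6) and INHA (61.4) were below 100 there, and INHA passed 100 only with FSK. Markers of theca, oocyte, immune and epithelial cells did not reach 100, and of the 2 endothelial markers only PECAM1 did (108.6 in control). Intervals beside ratios are exact 95% counting intervals; they contain no spread between cultures. In bulk RNA, fewer cells of a type and less RNA per cell cannot be told apart. All 4 treatments were set against the same control library.

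HSPA6, called HSP70B′, is an HSP70 that is nearly silent in unstressed human cells, and it was the only member with a large difference. It was at 1.83 scaled counts in control, 0 with FSH, 2.09 with FSK, 128.8 with SC79 and 9.88 with PMA. The SC79 library was high and the control, FSH and FSK libraries were at or below the 3-count floor. SC79 was 70.2-fold above control, with an interval from 19.1 to 588 because the control held 2 counts. The count of 122 in the SC79 library has a Poisson interval of 107 to 154 scaled counts. Against FSH, where no count was seen, SC79 was 43.0-fold higher when measured against the floor of 3 counts in the FSH library. The counting interval of this comparison starts lower, at 34.5-fold. PMA was 5.39-fold above control, between 1.15 and 50.6, but on 10 counts against 2. No fold is given for FSH or FSK, since they and the control lie at or below the floor.

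A gene was called different when its levels lay 2-fold or more apart and the higher of them was 100 scaled counts or more. By this rule SC79 differed from control for 1 of 10 members, HSPA6, against 0.264% of the 12482 genes tested (0.224% higher). HSPA6 reached the minimum through the SC79 library alone, so its place among the tested genes was fixed by its high value. FSH gave 0 members (0.409% of 12471 genes), FSK 0 (9.55% of 12606) and PMA 0 (7.26% of 12645). SC79 against FSH gave 1, again HSPA6 (0.52% of 12505 genes, 0.192% higher). FSK against PMA gave 1, HSPB1 (10.9% of 12696 genes, 5.8% lower). With 9 or 10 members tested, 1 member is a share near the background for FSK against PMA. At 1.5-fold, HSPA1A was also higher with FSK (9.15% of all genes) and HSPB1 with PMA (8.17%).

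HSPA6 lies at chr1:161524540-161526910 on the plus strand (GENCODE 29, GRCh38) as a single exon of 2371 bases. Of its 31-base words, 43.3% occur in no other gene and 56.6% are shared with HSPA7, a nearby pseudogene. HSPA7 itself was assigned 0 counts in 4 libraries and 1.2 with SC79, and the sum of both genes was 71.0-fold above control (19.2 to 592). The SC79 signal was therefore as large with the shared copy added. In the authors' deposited table HSPA6 had a log2 fold change of 6.00 with SC79 (adjusted p = 0.00643), 2.29 with PMA (adjusted p = 0.877) and -4.03 with FSH (adjusted p = 1). The dispersion behind those p-values, which compare single libraries, is not given in the sources used here.

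**Figure D1:**
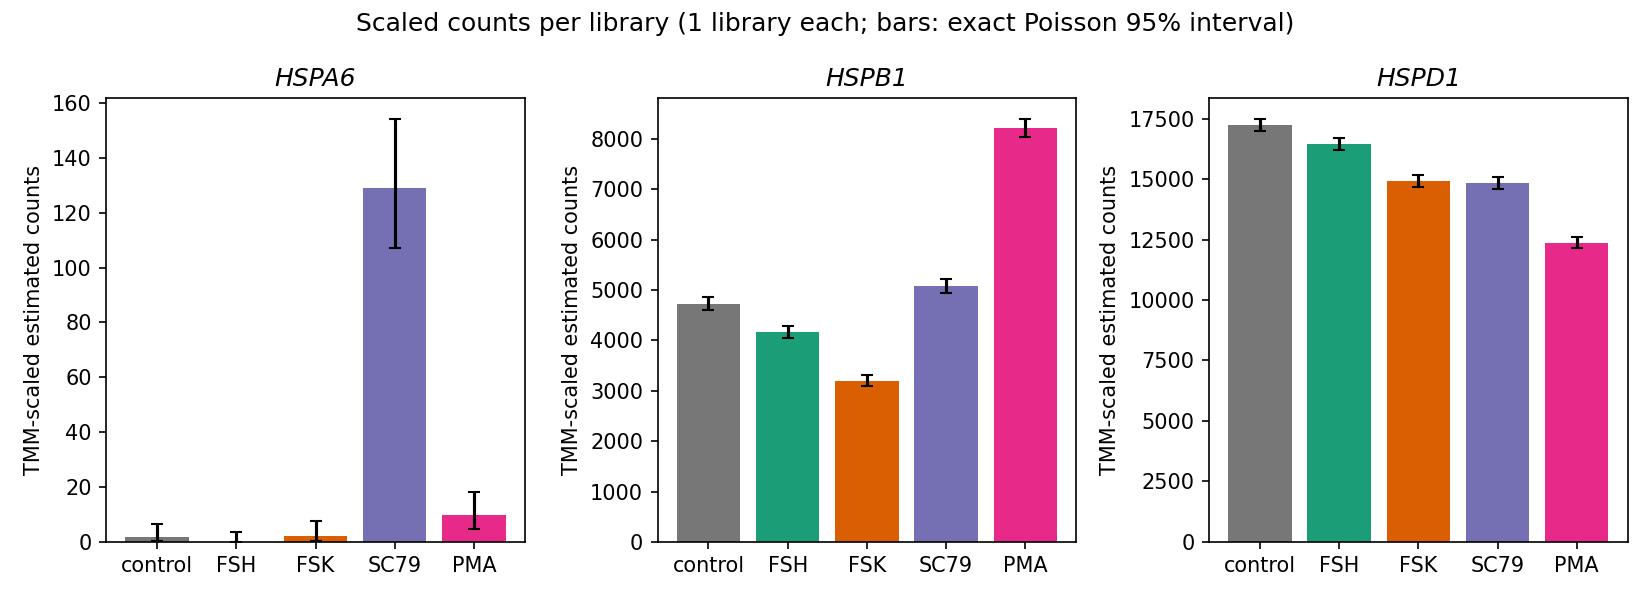
Scaled counts (vertical axes, linear from 0) of HSPA6, HSPB1 and HSPD1 in the 5 libraries; bars are single libraries and error bars exact Poisson 95% intervals, which cover counting error only. HSPA6 stands at 128.8 with SC79 and at 9.88 or less elsewhere, HSPB1 is highest with PMA (8211), and HSPD1 is lowest with PMA (12373).

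The 9 other members did not follow HSPA6 in the SC79 library. All 9 lay within 1.2-fold of control, where 90.7% of all genes did, and their median log2 ratio was -0.03 (all genes -0.01). HSP90AA1 was lowest at -0.24 and HSPA1A highest at 0.22. HSF1 RNA was at 4834 scaled counts in control and 5191 with SC79, and the activity of the HSF1 protein was not measured. The FSH library also had 9 of 9 within 1.2-fold (all genes 93.7%), with a median of -0.06. FSK had 7 of 9 (52.5%) with a median of -0.08, and PMA 6 of 9 (55.2%) with a median of 0.08.

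**Figure D2:**
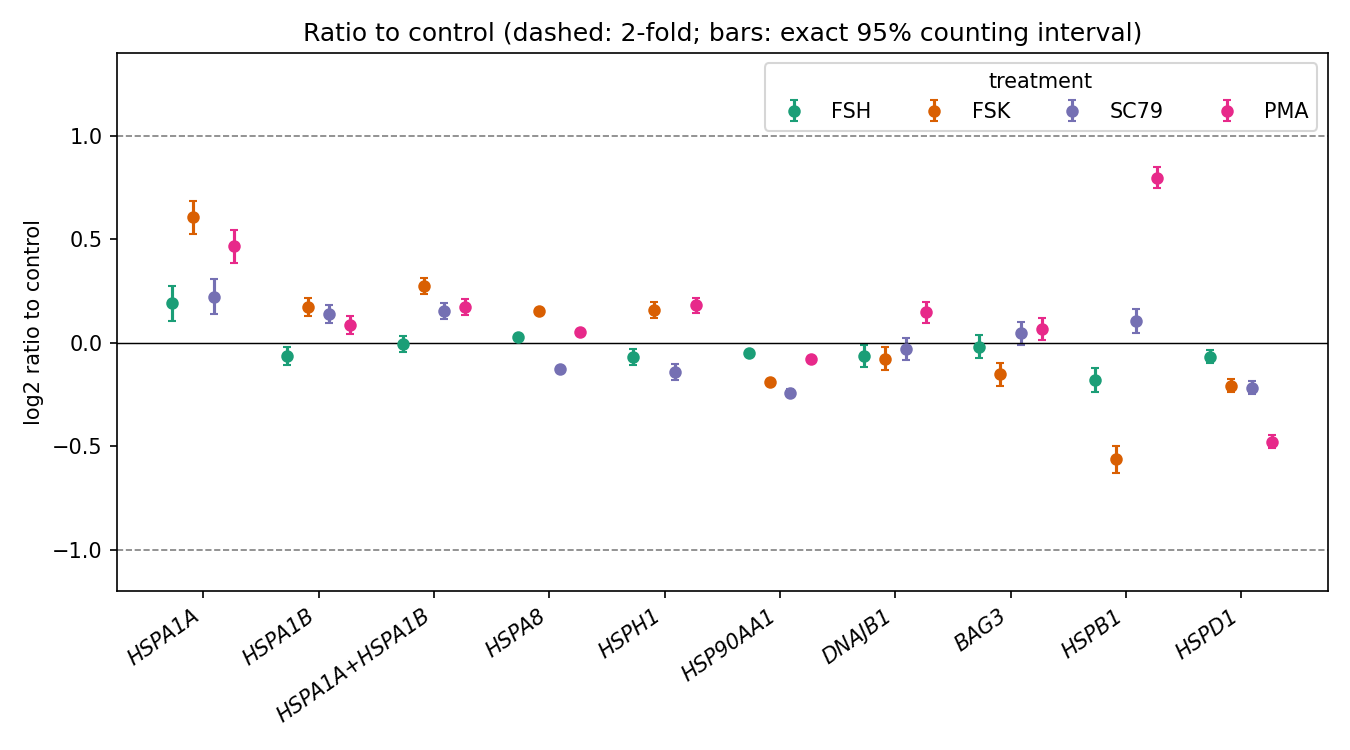
Log2 ratio to control (vertical axis) of 9 members and of the sum of HSPA1A and HSPA1B in each treatment; points are single libraries, error bars exact 95% counting intervals, dashed lines 2-fold. No point reaches a dashed line; HSPB1 with PMA (0.80), HSPA1A with FSK (0.61) and HSPB1 with FSK (-0.56) lie farthest from 0, and HSPA6 is left out because its SC79 ratio is off this scale.

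HSPA1A and HSPA1B, neighbouring genes at chr6:31815464-31817946 and chr6:31827735-31830255, encode almost the same inducible HSP70. HSPA1A was at 2075 scaled counts in control, 2368 with FSH, 3158 with FSK, 2424 with SC79 and 2867 with PMA. HSPA1B was at 7954, 7615, 8972, 8752 and 8437 in the same order. Unlike HSPA6, both were well expressed in the control. HSPA1A was 1.52-fold above control with FSK (1.44 to 1.61) and 1.38-fold with PMA (1.31 to 1.46), while HSPA1B was 1.13-fold (1.09 to 1.16) and 1.06-fold (1.03 to 1.09).

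Reads of this pair are hard to place, so their sum is the safer measure. In their GENCODE 29 transcripts, HSPA1A shares 73.6% of its 31-base words with HSPA1B, and 26.4% are its own. The transcripts that took almost all counts are not among these, and their words were not compared. The sum was 10030 scaled counts in control, 9984 with FSH, 12130 with FSK, 11175 with SC79 and 11304 with PMA. FSK was then 1.21-fold above control (1.18 to 1.24), PMA 1.13-fold (1.10 to 1.16), SC79 1.11-fold (1.08 to 1.14) and FSH 0.995-fold (0.969 to 1.02). The share of the sum assigned to HSPA1A was 20.7% in control, 23.7% with FSH, 26.0% with FSK, 21.7% with SC79 and 25.4% with PMA. The part of the HSPA1A differences that lies in this division of reads was not tested. HSPA1L, a relative that lies beside the pair and is read from the opposite strand, was at 108.2 in control and 202.7 with PMA. None of the HSPA1L counts lay on its GENCODE 29 transcript in any library.

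The counts of the pair also sat on transcripts outside the primary annotation. HSPA1A has 10 transcript rows and HSPA1B 8, of which 2 and 1 are in GENCODE 29's primary assembly. Those 3 rows held almost no counts: at most 9.13 estimated counts, for HSPA1B with FSH. For HSPA1A, ENST00000430065 carried 96.9 to 99.3% of the counts in every library. For HSPA1B, ENST00000391555 carried 70.7 to 77.3% and ENST00000450744 14.3 to 19.8%. The coordinates above are those of the primary genes, and lengths of the transcripts that took the counts were not used here.

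HSPA8, the constitutive HSC70 that also uncoats clathrin vesicles, lies at chr11:123057489-123063230 on the minus strand. It was the most abundant member, at 75247 scaled counts in control, 76633 with FSH, 83635 with FSK, 69025 with SC79 and 78131 with PMA. FSK was highest and SC79 lowest, at 1.11-fold (1.10 to 1.12) and 0.917-fold (0.908 to 0.927) of control. The estimate for 1 transcript went otherwise than the gene total. ENST00000528292, of 1112 bases, had 816 estimated counts with SC79 and 21.9 with FSK, against less than 1 count in control, FSH and PMA. It made up 1.25% of the gene's counts with SC79 (1.17 to 1.34%). HSPA8 has 24 transcript rows, and the quantifier estimates how reads are divided among overlapping transcripts. The part of this difference that lies in that division was not tested. The authors' deposited table gives it a log2 fold change of 12.77 with SC79 (adjusted p = 4.85e-05) and 7.58 with FSK (adjusted p = 0.0228). The main transcript, ENST00000227378, carried 76.4 to 81.6% and ENST00000534624 carried 12.6 to 18.9%. HSPA8 has many pseudogene copies, and the 37 pseudogenes named after HSPA8, HSPD1, HSPB1 and DNAJB1 held at most 59.1 estimated counts together in a library.

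**Figure D3:**
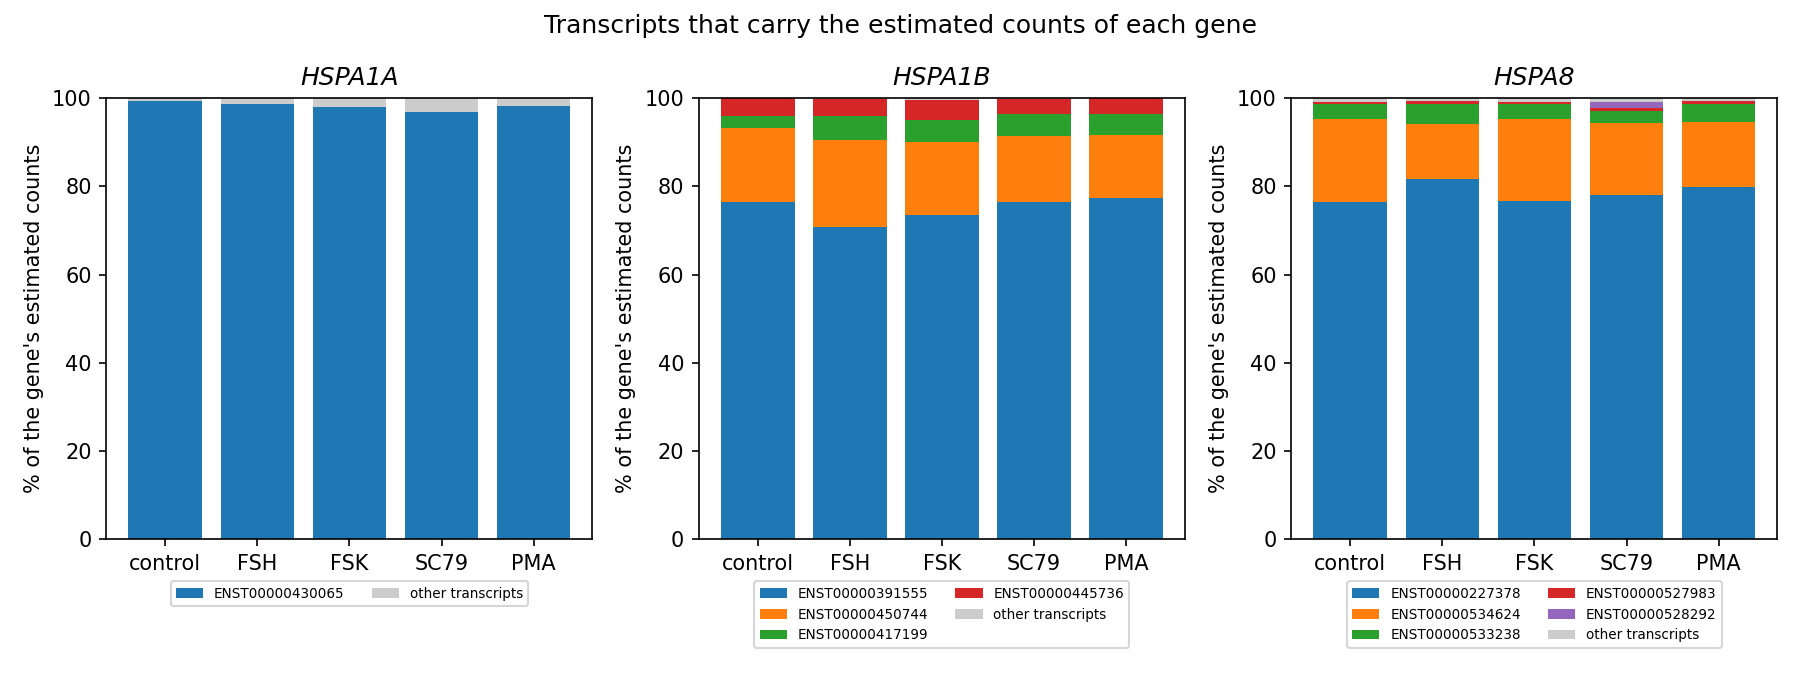
Share of each gene's estimated counts (vertical axes, percent) assigned to its transcripts in the 5 libraries, for HSPA1A, HSPA1B and HSPA8; stacked bars add up to the whole gene. HSPA1A rests on ENST00000430065 alone (96.9 to 99.3%), and in HSPA8 the transcript ENST00000528292 is visible only with SC79, at 1.25%.

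The partners of HSP70 differed little between libraries. DNAJB1, the HSP40 J-domain partner at chr19:14514770-14529770, was at 5543 scaled counts in control, 5312 with FSH, 5257 with FSK, 5424 with SC79 and 6140 with PMA. Its highest ratio was 1.11-fold, with PMA (1.07 to 1.15). HSPH1 (HSP110, an exchange factor and disaggregase partner) at chr13:31134974-31162388 was at 10555, 10055, 11774, 9579 and 11969 in the same order. FSK and PMA were high for HSPH1, at 1.12-fold (1.09 to 1.14) and 1.13-fold (1.11 to 1.16), and SC79 was low at 0.907-fold (0.883 to 0.933). BAG3, which links HSP70 to selective autophagy and lies at chr10:119651370-119677819, was at 5079, 5011, 4568, 5245 and 5318. The FSK library was lowest for BAG3, 0.899-fold of control (0.864 to 0.936), while the FSH and SC79 intervals included 1.

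HSPH1 counts were divided almost evenly between a coding transcript, ENST00000380405 (41.7 to 45.2%), and ENST00000602786 (40.6 to 44.5%), annotated as subject to nonsense-mediated decay. DNAJB1 rested on ENST00000254322 for 95.1 to 96.0% of its counts and BAG3 on ENST00000369085 for 96.2 to 97.2%. These divisions are estimates by the quantifier from overlapping transcripts.

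HSP90AA1 encodes the inducible cytosolic HSP90 alpha and lies at chr14:102080738-102139699 on the minus strand. It was at 68947 scaled counts in control, 66565 with FSH, 60475 with FSK, 58371 with SC79 and 65342 with PMA. Control was the highest library and SC79 the lowest, 0.847-fold of control (0.837 to 0.856), with FSK at 0.877-fold (0.868 to 0.887). ENST00000334701, which starts upstream of the main transcript, took 1.98 to 3.54% of the counts. The 4 HSP90AA pseudogenes in the table, of which HSP90AA2P shares 16.8% of the 31-base words of HSP90AA1, held at most 14.0 estimated counts together in a library.

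HSPB1, the small heat shock protein HSP27, which holds unfolded proteins and binds actin, lies at chr7:76302544-76304295 on the plus strand. It was the member with the widest range apart from HSPA6. It was at 4721 scaled counts in control, 4166 with FSH, 3198 with FSK, 5075 with SC79 and 8211 with PMA. PMA was high, 1.74-fold above control (1.68 to 1.80), and FSK low, 0.677-fold (0.648 to 0.709). FSK against PMA was the single 2-fold difference, 2.57-fold lower with FSK (ratio 0.389, 0.374 to 0.406). In the authors' deposited table its main transcript, ENST00000248553, had a log2 fold change of 0.76 with PMA and -0.62 with FSK, both with adjusted p = 1. That transcript carried 92.4% of the gene's counts with FSK and 97.7% with PMA.

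Marker genes also differed between the FSK and PMA libraries. PECAM1, an endothelial marker, was at 647.3 scaled counts with PMA and 76.4 to 171.4 in the other libraries, while CDH5, the other endothelial marker, stayed at or below 1.996. The 8 granulosa markers summed to 26260 in control, 26882 with FSH, 58787 with FSK, 27638 with SC79 and 19998 with PMA. Of the 8, 6 were higher with FSK than with PMA, 1 was lower (NR5A1, 4678 against 4760) and WT1 was at 0 in both. CYP19A1, the aromatase that makes estrogen, had the widest gap, 27409 with FSK against 1688 with PMA and 900.5 in control. FOXL2, a granulosa transcription factor, was at 9990 with FSK and 5451 with PMA. Their part in the HSPB1 difference was not tested.

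HSPD1, the mitochondrial HSP60 at chr2:197486581-197516737, was at 17227 scaled counts in control, 16456 with FSH, 14926 with FSK, 14823 with SC79 and 12373 with PMA. Control was the highest library and PMA the lowest, 0.718-fold of control (0.702 to 0.735). HSPE1, the HSP10 lid of the same chaperonin, was at 2560 in control and 2161 with PMA. ENST00000388968 carried 66.0 to 76.1% of the HSPD1 counts and ENST00000345042 21.6 to 31.7%.

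Per kilobase of transcript, the levels spanned a wide range. The order of the medians over the 5 libraries was HSPA8 (40690 scaled counts per kb), HSP90AA1 (19435), HSPD1 (6595), HSPB1 (5114), HSPH1 (3008), DNAJB1 (2586), BAG3 (2049) and HSPA6 (0.881). HSPD1 and HSPB1 overlapped in their ranges over the libraries, 5438 to 7513 and 3426 to 8956, as did HSPH1 and DNAJB1, 2732 to 3406 and 2497 to 2921. The other neighbours in this order did not overlap. Even with SC79, HSPA6 stayed at 54.3 scaled counts per kb. HSPA1A and HSPA1B were left out because the lengths of their counted transcripts were not used here.

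**Figure D4:**
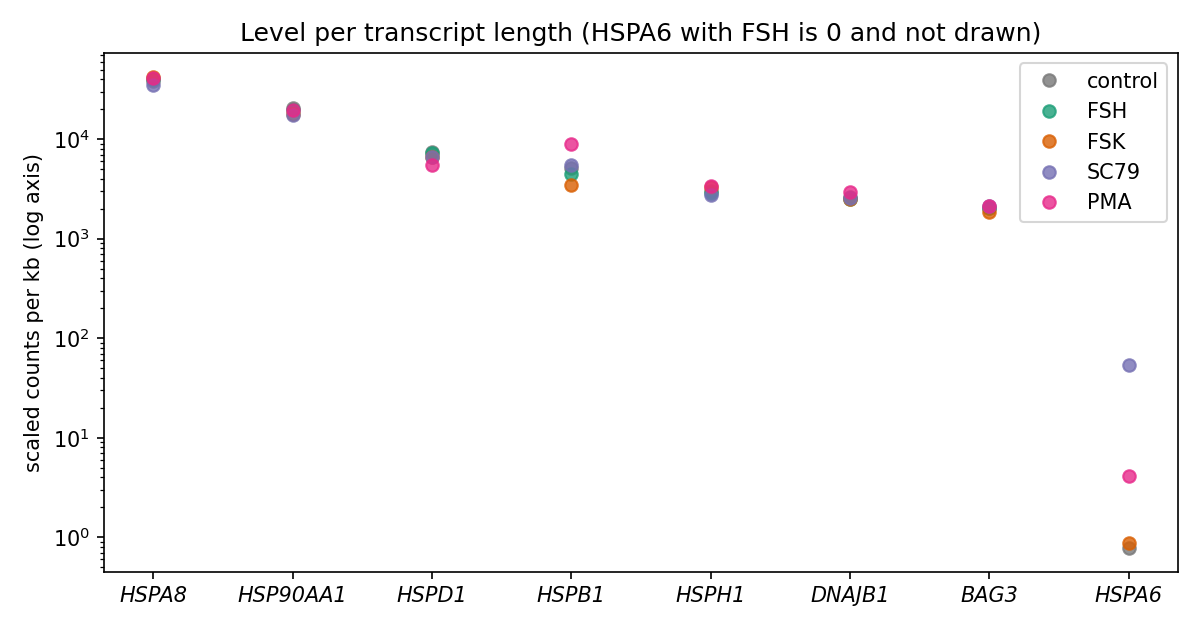
Scaled counts per kb of transcript (vertical axis, logarithmic) of 8 members in the 5 libraries, each point 1 library, genes ordered by their median. HSPA8 and HSP90AA1 lie above 17384 in all libraries, while HSPA6 stays at or below 54.3.

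The wider chaperone network was described with 9 gene lists of 105 genes, of which 93 reached the minimum in the comparisons with control. Counts past 2-fold were 0 with FSH, 1 higher and 3 lower with FSK, 0 with SC79, and 2 higher and 0 lower with PMA. Over all genes the shares past 2-fold were 0.409, 9.55, 0.264 and 7.26% in that order. Within 1.2-fold of control lay 90 of 93 with FSH, 63 with FSK, 89 with SC79 and 70 with PMA, where 93.7, 52.5, 90.7 and 55.2% of all genes did.

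Among the heat shock factors and their binding protein, 4 genes were tested and none passed 2-fold. HSF1 lay between 4806 and 5191 scaled counts in all libraries. HSF4, a factor known from the lens, had the highest ratio with SC79, at 0.41 on the log2 scale.

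Among 9 BAG and other exchange factors, BAG1, an exchange factor that also binds the proteasome, was the single gene past 2-fold. It was at 1973 scaled counts in control, 2239 with FSH, 5852 with FSK, 2131 with SC79 and 4720 with PMA. FSK and PMA were both high, 2.97-fold (2.82 to 3.12) and 2.39-fold (2.27 to 2.52) above control. BAG3, with the same BAG domain, stood at 0.899-fold and 1.05-fold in those libraries.

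Of the 4 small heat shock proteins tested beside HSPB1, HSPB7, found mainly in heart and muscle, was past 2-fold with PMA. It was at 146.7 scaled counts in control, 195.7 with FSH, 165.1 with FSK, 141.8 with SC79 and 736.4 with PMA, a log2 ratio of 2.32. HSPB8, a partner of BAG3, had log2 ratios of 0.71 with FSH and 0.79 with FSK. HSPB3 was at 96.9 with PMA and 5.5 in control, below the minimum for a call.

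In the list of HSP90 proteins and co-chaperones, FKBP5, a steroid receptor co-chaperone, was lower with FSK (1188 scaled counts against 2824 in control, log2 -1.25) and was the single gene of 16 past 2-fold. The medians of the 10 other HSP70 genes were -0.01 with FSH, 0.15 with FSK, -0.04 with SC79 and -0.03 with PMA. With FSK the highest gene of the HSP70 list was HYOU1 at 0.84 and that of the HSP90 list HSP90B1 at 0.83 on the log2 scale, both chaperones of the endoplasmic reticulum, and neither reached 2-fold.

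Of 16 J-domain proteins, 0 passed 2-fold in any treatment, and their range with FSK ran from -0.95 (DNAJC9) to 0.87 (DNAJC3). The 14 subunits of TRiC and prefoldin, which fold actin and tubulin, had medians of -0.02, -0.04, -0.06 and -0.04 with FSH, FSK, SC79 and PMA, and none passed 2-fold. The 11 mitochondrial chaperones and proteases had medians of -0.02, 0.01, 0.00 and 0.02 in that order. HSPD1, at -0.48 with PMA, lay below all 11, whose lowest was TRAP1 at -0.29.

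**Figure D5:**
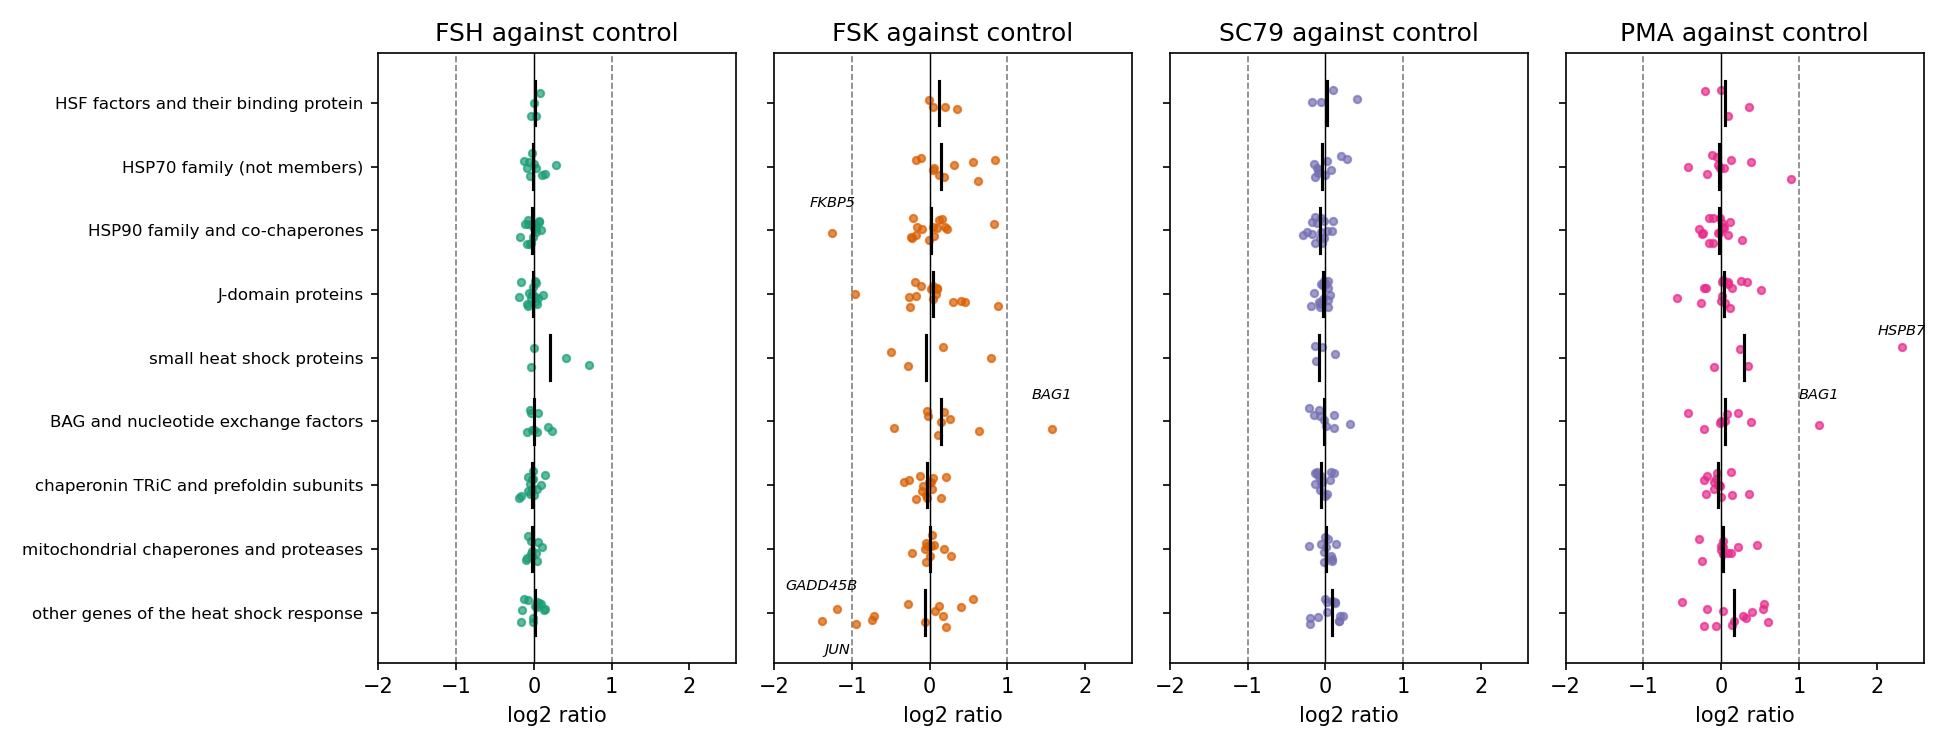
Log2 ratio to control (horizontal axes) of the genes of 9 chaperone and heat shock lists that reached the minimum, 1 panel per treatment; points are genes, vertical ticks list medians, dashed lines 2-fold. With FSH and SC79 no gene reaches a dashed line, and BAG1, HSPB7, FKBP5, GADD45B and JUN are named where they do with FSK or PMA.

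The genes whose 4 ratios to control were most like those of a member were named by the root mean square difference of log2 ratios, over 12435 genes and the 4 treatments. For HSPA1A the nearest were TMEM208 (0.0226), VWA5A (0.0276) and BRF2 (0.0331). For HSPB1 they were NR2F2 (0.0649), ADAM12 (0.0808) and KHDRBS3 (0.0844). HSPA6 was left out, because its levels with FSH, FSK and control lie at or below the floor and give no ratios to compare. With 4 values per gene and 1 shared control, these matches are a description only.

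In the authors' deposited table, 0, 1, 3 and 2 of the 92 member transcripts had an adjusted p under 0.05 with FSH, FSK, SC79 and PMA, against 1.8, 2.2, 1.84 and 2.17% of all 179973 transcripts. Apart from HSPA6 and ENST00000528292 with SC79, they were rows with few reads. The row with FSK was ENST00000528292, at 21.9 estimated counts. ENST00000429938 of HSPB1 went from 0 to 18.7 estimated counts with SC79 (authors' deposited table, log2 7.33, adjusted p = 0.0382). With PMA, ENST00000441618 of HSPA1A went from 0 to 44.7 (log2 8.47, adjusted p = 0.00586) and ENST00000532636 of HSPA8 from 0 to 25.2 (log2 7.65, adjusted p = 0.0207), in the authors' deposited table. The main transcripts of these genes carried far more counts. Except for HSPA6, which has 1 transcript row, these rows, ENST00000528292 included, depend on how the quantifier divided reads among transcripts. The part of that division was not tested.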

How the data were processed

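RNA was measured in 5 KGN libraries, 1 per group, from poly(A)-selected paired-end libraries. Trimmomatic, kallisto and edgeR were used upstream, per the submitters' processing notes. No version, genome build or transcript index is given in the sources used here. The authors deposited estimated counts per transcript. They also deposited a normalized signal, equal to the estimated counts times 1 constant per library, used here as an alternative only. The authors' deposited comparison table lists, for each transcript, a log2 fold change with its p-value before and after adjustment.

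Counts per gene had been planned. As the deposited values are per transcript, estimated counts were summed by gene name and rounded to whole numbers for scaling. Scaling was by TMM in edgeR 4.0.16 (R 4.3.3, factors 0.976 to 1.03). It was tested on simulated counts with counting error alone and as many genes raised as lowered, a simpler setting than these libraries. To each scaled count 1 was added as a pseudocount before taking log2 ratios. Calls needed a fold of 2 or more and a higher level of 100 scaled counts or more. With 1 library per group no p-value was computed. Ratio intervals are exact conditional binomial (Clopper-Pearson) at 95%, and they and the floor of 3 counts hold for counting error alone, as PCR copies cannot be told from separate molecules. Gene and transcript positions are from GENCODE 29 (GRCh38) by Ensembl identifier, and promoters from RefSeq (GRCh38.p14). All members are named; other genes were named where they passed 2-fold, were the highest or lowest of a list, or had the pattern nearest to HSPA1A or HSPB1, unless said otherwise. The members and lists were chosen with earlier results of these data known. Of the sample columns, 0 were left unmatched. Python 3.11.15, numpy 2.4.6, pandas 2.3.3, scipy 1.17.1 and matplotlib 3.10.9 did the rest. Alternatives were DESeq2 1.42.0 size factors, library totals, the authors' normalization, other pseudocounts, minimums and folds, protein-coding transcripts only, and summed paralogs.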

Additional observations from a re-analysis of the deposited data

Results flagged for a closer look

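The authors' deposited table holds a comparison of LH, luteinizing hormone, with control, for which no library was used here, so its values stand outside the comparisons above. In it, 3 of the 92 member transcripts had an adjusted p under 0.05 with LH, against 2.74% of all 179973 transcripts. HSPA6 had a log2 fold change of 6.12 (adjusted p = 0.00344), beside 6.00 with SC79. ENST00000528292 of HSPA8 had 12.46 (adjusted p = 1.16e-05), beside 12.77 with SC79. ENST00000525463 of HSPA8 had -8.96 (adjusted p = 0.00182), while its estimated counts were 64.8 in control, 31.2 with FSH, 27.0 with FSK, 40.7 with SC79 and 80.0 with PMA. The LH and SC79 comparisons share the control library.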

How the results depend on the processing

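No paired analysis was possible because each group has 1 library; for the same reason no library could be left out. No result changed direction past the threshold, and DESeq2 size factors moved 0 of 60 member ratios. The authors' normalization moved 52 of 60 and changed the sign of 16, because it shifts the median of all genes to -0.16 with FSH and FSK, -0.28 with SC79 and -0.25 with PMA; member ratios within that shift of 0 have no sure direction. Summing HSPA1A and HSPA1B turned HSPA1A with FSH from 0.19 to -0.01. The log2 ratio of HSPA6 moved by up to 2.28 with a pseudocount of 5. Low counts limit HSPA6 alone among the members.

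Counts of genes past the fold, given as higher and lower, moved as follows. With the authors' normalization SC79 had 16 and 17, and PMA 739 lower. With protein-coding transcripts only, SC79 had 17 higher. With a minimum of 20, FSH had 136 and 76, SC79 119 and 71, PMA 720 and 693, and SC79 against FSH 108 and 126. With no minimum, FSH had 1222 and 1104, FSK 2735 and 2018, SC79 2082 and 1072, and PMA 2095 and 1769. FSK against PMA then had 2966 and 2342, and SC79 against FSH 2155 and 1203. Members were then 1 lower with FSH (HSPA6), 1 higher with PMA (HSPA6) and 2 lower in FSK against PMA (HSPA6 and HSPB1). These HSPA6 calls rest on 0 counts with FSH, 2 in control, 2 with FSK and 10 with PMA. FSH and control lie at or below the floor and give no fold. Shares of all genes were not computed for this setting. At 1.5-fold, FSH had 91 and 37, FSK 1154 and 1355, SC79 91 and 48, PMA 1033 and 1163, FSK against PMA 1331 and 1508, and SC79 against FSH 88 and 121; members were 1 higher with FSK (HSPA1A, 9.15% of all genes) and 1 higher with PMA (HSPB1, 8.17%). Where the fold or the minimum was lowered, more genes could pass by construction; for the other settings the cause was not tested.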

Other observations

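A last list held 13 tested genes that accompany the heat shock response and are in none of the other lists. With FSK, JUN, a subunit of AP-1, and GADD45B, a stress sensor, were past 2-fold lower, with log2 ratios of -1.19 and -1.38, and IER5, an HSF1 cofactor, was at -0.95. With SC79, where HSPA6 was high, 13 of 13 lay within 1.2-fold of control, as did 90.7% of all genes, the highest being ZFAND2A at 0.23. With PMA the list ran from -0.50 (SERPINH1, a collagen chaperone) to 0.60 (DEDD2). FSK against PMA had 5 of the 93 genes of the 9 lists lower (5.8% of all genes were), namely DDIT3, FKBP5, GADD45B, HSPB7 and JUN.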
